A study of Mus musculus with 2 samples.

Results

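The 8 genes described here encode core transcription factors of the hepatocyte lineage, which are the nuclear receptor Hnf4a, the forkhead factors Foxa1, Foxa2 and Foxa3, the Onecut factors Onecut1 and Onecut2, and the homeobox factors Prox1 and Hhex. A gene was taken when the array's annotation gave a probe set exactly 1 gene symbol and that symbol was 1 of these names. All 8 were found, each by 1 probe set, among 22180 genes with such a probe set. The study asked whether overexpression of the serum response factor Srf lowers genes of the hepatoblast's own programme. Mouse hepatoblasts in primary culture from fetal liver received a retrovirus with EGFP, as the control, or with Srf. According to the methods, these cells were expanded from a clone of fetal liver cells of mice with a Nanog-GFP reporter, and transduced cells were selected with puromycin. The methods also describe a derivative of these cells that carries doxycycline-inducible reprogramming factors. Whether the arrays used the parent cells or this derivative was not given in the sources used here. Cells of both groups grew in serum with insulin, dexamethasone, nicotinamide, HGF and EGF. The time between transduction and harvest was not given in the sources used here.

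Total RNA of each culture was hybridised to 1 Affymetrix whole-transcript array, so there was 1 array for EGFP and 1 for Srf. No difference could be set against the spread between cultures, and no p-value is given. How precise a value is cannot be told from so few arrays. Values are log2 signals per probe set, with a median of 5.88 over the 34351 probe sets of the EGFP array and 5.84 for the Srf array. Srf itself was at 8.57 in EGFP cells and at 12.15 in Srf cells. Over the 19261 genes bright enough to be compared, the difference (Srf minus EGFP, log2) had a median of -0.01 and an SD of 0.24. In 865 genes measured by 2 bright probe sets, the SD of the difference within a gene was 0.20, a spread that leaves out the variation between cultures. Where a pair of signals is given for a gene, the EGFP array comes first. Signals of different probe sets depend on their probes, so the levels of genes are placed among all probe sets of an array and not ranked between genes.

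Hepatocyte identity is held by a network of a few factors that bind the regulatory regions of each other's genes and of liver genes. Foxa1 and Foxa2 are pioneer factors, which bind closed chromatin, and together they are required for the liver to be specified from the endoderm. Hnf4a then drives the epithelial and metabolic genes of the hepatocyte, while Hhex and Prox1 are needed for the liver bud to grow and for hepatoblasts to move out of it. Onecut1 and Onecut2 act in hepatoblasts as these divide into hepatocytes and bile duct cells.

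The core factors fell into a group of 5 that lay lower on the Srf array and a group of 3 with nearly equal values on both. Foxa3, Hhex, Onecut2, Hnf4a and Foxa1 had log2 differences from -0.66 to -0.35, whereas Prox1, Onecut1 and Foxa2 lay within 0.02 of 0 on this scale. Of the 8, 1 was at least 1.5-fold lower and 0 were at least 1.5-fold higher, the threshold that the study used in hepatoblasts. Among all genes compared, 1.27% were lower and 1.55% were higher by 1.5-fold, so the count of 1 of 8 rests on a single gene. At 2-fold, 0 of the 8 passed, beside 0.317% of all genes lower and 0.343% higher. The median difference of the 8 was -0.36, beside -0.01 over all genes compared. All 8 signals were at or above the array median on both arrays. The median of the 8 was -0.33 when each array was centred on its median and -0.39 after lowess centring.

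**Figure D1:**
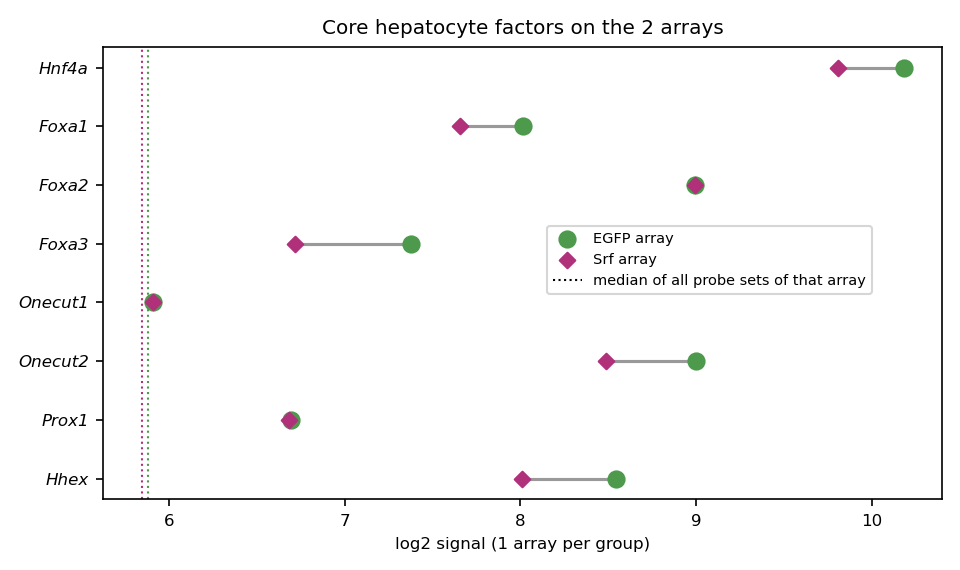
Log2 signal of each core hepatocyte factor in EGFP cells (green circles) and in Srf cells (magenta diamonds), joined by a grey line, with dotted lines at the median of all probe sets of each array. The values of Foxa3 (7.38 and 6.72), Hhex, Onecut2, Hnf4a and Foxa1 were lower on the Srf array, and those of Foxa2, Onecut1 and Prox1 nearly coincide.

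The nuclear receptor Hnf4a, which binds DNA as a homodimer and activates apolipoprotein, clotting factor and junction genes, was bright on both arrays. Its signal was 10.18 in EGFP cells and 9.81 in Srf cells. These values lay above 95.5% and 93.7% of the probe sets of their arrays. The difference of -0.37 corresponds to 1.29-fold lower signal and did not reach 1.5-fold. Of the 1000 genes nearest to Hnf4a in mean level, 4.90% had a lower difference.

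The Foxa factors, which share the forkhead DNA-binding domain, gave 3 different values. Foxa1 was at 8.01 and 7.66, a difference of -0.35 (1.28-fold lower). Foxa2 was at 8.994 and 8.996. Foxa3, a family member linked to glucose metabolism in the liver, was at 7.38 and 6.72, a difference of -0.66 (1.58-fold lower), and it was the 1 core factor past 1.5-fold. Foxa2 was thus equal on both arrays at a signal above 88.3% of the EGFP array's probe sets, while both other Foxa genes were lower with Srf. Among genes nearest in level, 7.20% had a lower difference than Foxa1, 41.7% a lower one than Foxa2 and 1.40% a lower one than Foxa3. Foxa3 had the 167th lowest difference of the 19261 genes compared. With 1 array per group, the gaps between the Foxa genes could not be tested.

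The Onecut genes also differed from each other. Onecut1, also known as Hnf6, lay at 5.91 on both arrays, only just above the array medians. Its difference was 0.00. Onecut2 was at 9.001 in EGFP cells and 8.488 in Srf cells, a difference of -0.51 (1.43-fold lower). Of the 1000 genes nearest to Onecut2 in level, 1.90% had a lower difference.

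The homeobox factors split in the same way. Hhex was at 8.54 in EGFP cells and 8.01 in Srf cells, a difference of -0.53 (1.45-fold lower), and 2.30% of genes nearest in level had a lower one. Prox1, which is also the factor that sets lymphatic endothelial fate, was at 6.70 and 6.68, a difference of -0.01. Its signal lay above 65.6% of the EGFP array's probe sets, and 53.9% of genes nearest in level had a lower difference. Of the 8 core factors, 6 lay below the median difference of their neighbours in level, while Onecut1 and Prox1 lay above it. Hhex is also made by endothelial and blood progenitors. Of 12 endothelial and lymphatic markers, 11 were compared. By 1.5-fold 0 were lower and 1 was higher, beside 1.27% and 1.55% of all genes compared. The signals of all 12 ranged from 4.87 to 7.10 (EGFP) and from 4.92 to 7.60 (Srf). The lymphatic receptor Flt4 was 1.5-fold higher (6.93 and 7.60), and Egfl7 had the lowest difference (7.10 and 6.74). Of 7 blood cell markers compared, 0 passed 1.5-fold in either direction. The highest difference was that of Cd68, a macrophage marker (7.56 and 8.01), and among those at or above the array median the lowest was that of Cd34 (5.95 and 5.64). Ptprc, the pan-leukocyte marker, lay below the 20th percentile of both arrays and was not compared (4.84 and 4.91). Whether other cell types had a part in the values of Hhex or Prox1 was not tested. In RNA of a whole culture, fewer cells that express a gene and less RNA per cell cannot be told apart.

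**Figure D2:**
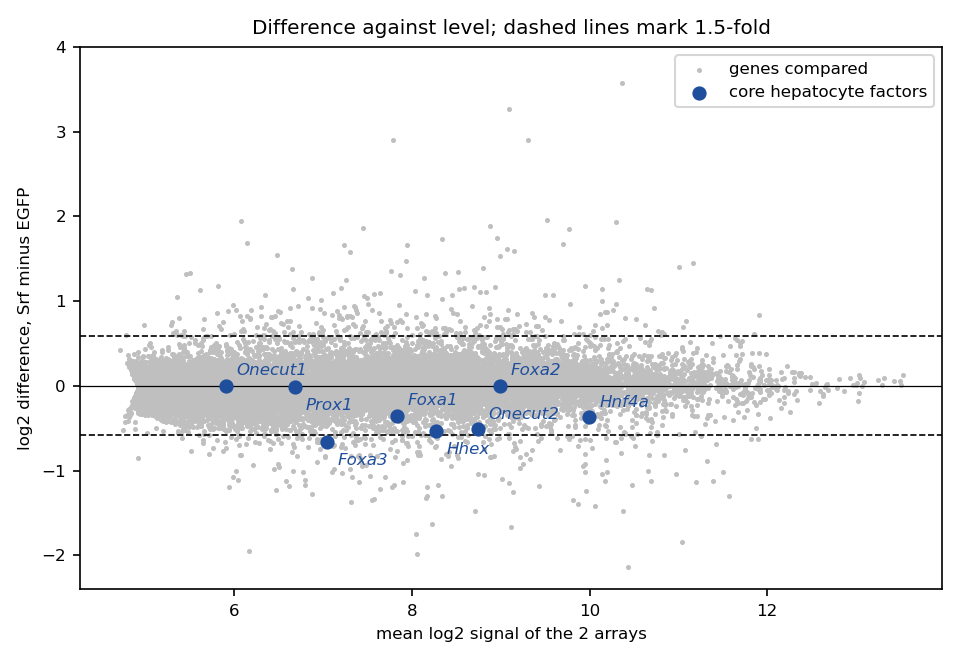
Log2 difference between the Srf and EGFP arrays (vertical axis) against the mean log2 signal of both (horizontal axis) for the 19261 genes compared (grey points), with the core factors in blue and dashed lines at 1.5-fold. Foxa3 lies below the lower line, Hhex and Onecut2 lie just above it at -0.53 and -0.51, and Foxa2, Onecut1 and Prox1 lie on the line of no difference.

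The order of the differences ran from Foxa3 through Hhex, Onecut2, Hnf4a and Foxa1 to Prox1, Onecut1 and Foxa2. Neighbours in this order were at most 0.14 apart, except for the step of 0.34 from Foxa1 to Prox1. That step was picked after the values were sorted, and it was not tested. The SD of 0.20 between probe sets of a gene describes a single difference. A step lies between the differences of separate genes, so this SD is no measure for it. Under 4 other scalings of the arrays, Foxa3 stayed past 1.5-fold (from -0.68 to -0.62) and no other core factor passed it. Hhex came nearest, at -0.56 under lowess centring and under quantile normalization. The signs of Foxa2, Onecut1 and Prox1 changed with the scaling, with ranges from -0.03 to 0.04, from -0.01 to 0.04 and from -0.03 to 0.02, so no direction is given for them.

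**Figure D3:**
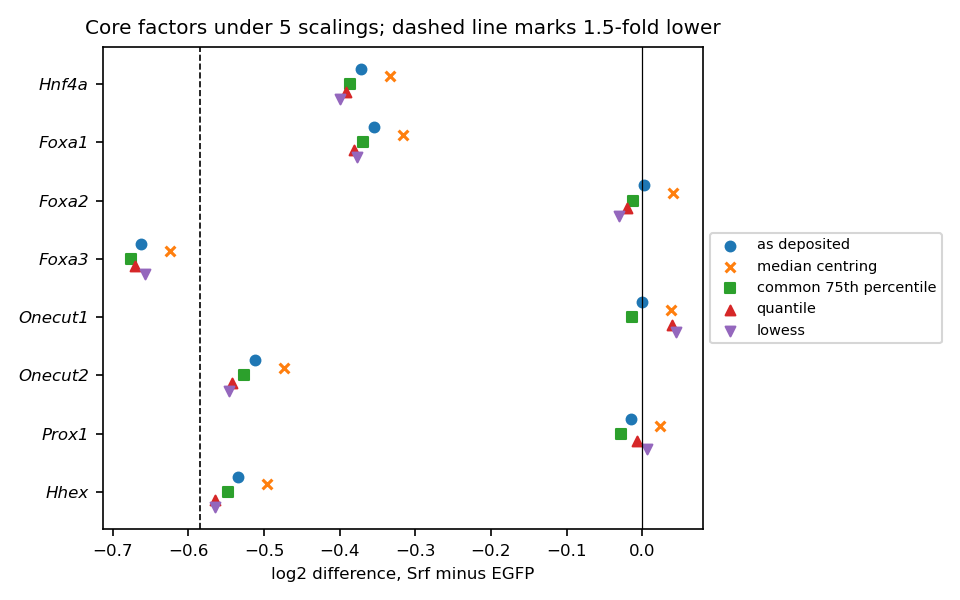
Log2 difference of each core factor between the Srf and EGFP arrays as deposited and under 4 other scalings (symbols), with a solid line at 0 and a dashed line at 1.5-fold lower. Foxa3 lies beyond the dashed line under each of the 5 scalings (from -0.68 to -0.62), and Foxa2, Onecut1 and Prox1 lie on both sides of 0.

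Because the network's factors bind each other's genes, sequences at the starts of the Foxa genes and of Hnf4a are shown as a description. These sequences were picked with the values of the genes known, and no link to the differences was tested. They are RefSeq windows of build GRCm38.p6 that run from 250 bases before a transcription start to 50 bases after it. Windows of 7 of the 8 genes were searched, 11 windows in all. Onecut2, which was lower on the Srf array, was left out of the search. Searched on both strands were the Foxa site TGTTTAC with its variant forms TGTTTGC and, as a further form, TATTTAC, the Onecut site ATCAAT, the core GTTAAT of sites for Hnf1 homeobox factors, the Hnf4 site CAAAGTCCA, the TATA box TATAAA and, by its pattern, the CArG box to which Srf binds. The windows are Foxa1 at chr12:57546062-57546361 (minus strand), the most upstream of 3 for Foxa2 at chr2:148046920-148047219 (minus strand) and Foxa3 at chr7:19023490-19023789 (minus strand). For Hnf4a (plus strand) they are the upstream promoter at chr2:163506607-163506906 and the downstream promoter, the main one in adult liver, at chr2:163546905-163547204. Capitals mark matches, and no 2 matches overlap.
Foxa1: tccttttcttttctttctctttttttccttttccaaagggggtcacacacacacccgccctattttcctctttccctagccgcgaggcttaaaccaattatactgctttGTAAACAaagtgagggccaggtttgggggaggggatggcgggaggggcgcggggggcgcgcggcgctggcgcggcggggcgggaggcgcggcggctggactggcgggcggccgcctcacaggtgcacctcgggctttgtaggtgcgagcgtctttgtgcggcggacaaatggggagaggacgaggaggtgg
Foxa2: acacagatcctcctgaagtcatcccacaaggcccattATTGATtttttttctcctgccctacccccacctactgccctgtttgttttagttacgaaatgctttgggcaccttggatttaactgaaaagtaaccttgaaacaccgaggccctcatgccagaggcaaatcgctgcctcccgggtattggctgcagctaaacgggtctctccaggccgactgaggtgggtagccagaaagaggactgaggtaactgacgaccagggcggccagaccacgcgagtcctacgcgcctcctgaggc
Foxa3: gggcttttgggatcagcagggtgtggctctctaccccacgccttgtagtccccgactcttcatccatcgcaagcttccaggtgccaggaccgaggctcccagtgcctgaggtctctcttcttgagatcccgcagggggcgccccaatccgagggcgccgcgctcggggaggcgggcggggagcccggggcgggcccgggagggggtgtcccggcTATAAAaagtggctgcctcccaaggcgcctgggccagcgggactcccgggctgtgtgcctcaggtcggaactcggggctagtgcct
Hnf4a upstream: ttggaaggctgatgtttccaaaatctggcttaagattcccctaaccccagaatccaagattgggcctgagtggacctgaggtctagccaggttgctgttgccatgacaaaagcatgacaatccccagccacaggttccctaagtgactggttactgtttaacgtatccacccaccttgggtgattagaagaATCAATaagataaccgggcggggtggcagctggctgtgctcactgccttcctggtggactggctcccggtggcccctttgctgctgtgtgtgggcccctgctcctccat
Hnf4a downstream: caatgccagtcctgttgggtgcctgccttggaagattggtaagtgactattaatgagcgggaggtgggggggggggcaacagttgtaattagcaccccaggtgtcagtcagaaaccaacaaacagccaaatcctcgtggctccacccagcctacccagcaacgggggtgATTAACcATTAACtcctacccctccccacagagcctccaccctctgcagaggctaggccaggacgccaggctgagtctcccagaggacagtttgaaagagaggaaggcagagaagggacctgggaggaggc

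The Foxa1 window held a Foxa site 141 bases before the start, read as GTAAACA on this strand. A Foxa site of any of the 3 forms occurs in 11.2% of the 32851 windows of the table. The Foxa2 window held an Onecut site 213 bases before the start, and the upstream Hnf4a window held one 59 bases before it, where 7.54% of all windows hold one. The downstream Hnf4a window held 2 Hnf1 cores, 81 and 74 bases before the start, and 7.10% of all windows hold at least 1. The Foxa3 window had a TATA box 36 bases before the start (13.6% of all windows) and no match to the factor sites searched. The CArG box was found in 0 of the 11 windows searched, which hold none of Onecut2, beside 1.63% of all windows. The Hnf4 site was found in 0, beside 0.475%. With shares this low over all windows, a count of 0 in 11 windows is no result about these genes. Matches also lay in windows that are not printed. Another Foxa2 window held an Hnf1 core 176 bases and a TATA box 208 bases before the start, and Prox1, whose values were nearly equal, had a TATA box in 1 window, 34 bases before the start, and a Foxa site in the other, 120 bases before it. In all, 2 of the 11 windows held a Foxa site and 3 a TATA box. These are too few to relate to the differences, and no relation was tested. The windows of Hhex and Onecut1 held no match to any of these motifs. A match is a description of the letters and not a bound site, and sites outside the windows were not searched. The probe set of Hnf4a was not assigned to either promoter's transcripts.

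The core factors were next set beside genes related to them. Of their paralogs, 3 had a probe set of 1 symbol and 0 passed 1.5-fold. Onecut3 was at 7.19 and 6.84, Hnf4g at 5.89 and 5.68, and Prox2 at 5.94 and 5.76. Among all genes compared, 52.8% had a difference below 0. Of the 40 forkhead genes outside the Foxa group, 0 passed 1.5-fold, 22 lay below 0, and the median was -0.03. Their lowest difference was that of Foxd1 (-0.44, at 6.09 on the EGFP array) and the highest was that of Foxf2 (0.27). The differences of Foxa1 and Foxa3 thus lay at the low end of the forkhead family, with that of Foxa3 below all 40, and that of Foxa2 near its middle. Of 17 other liver transcription factors compared, 11 lay below 0, and their median was -0.11. By 1.5-fold 1 was lower and 0 were higher, beside 1.27% and 1.55% of all genes compared. Cebpa, a factor of hepatocyte maturation, was lower (8.36 and 7.45), and Zbtb20, a repressor of the Afp gene, had the highest difference (0.35). The median of the core factors (-0.36) lay below those of these lists, and no test stands behind this. All core factors reached the array median, which some genes of these lists did not. Among list genes that reached the median of either array, the medians were -0.28 for other liver factors, -0.22 for paralogs and -0.03 for forkhead genes.

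**Figure D4:**
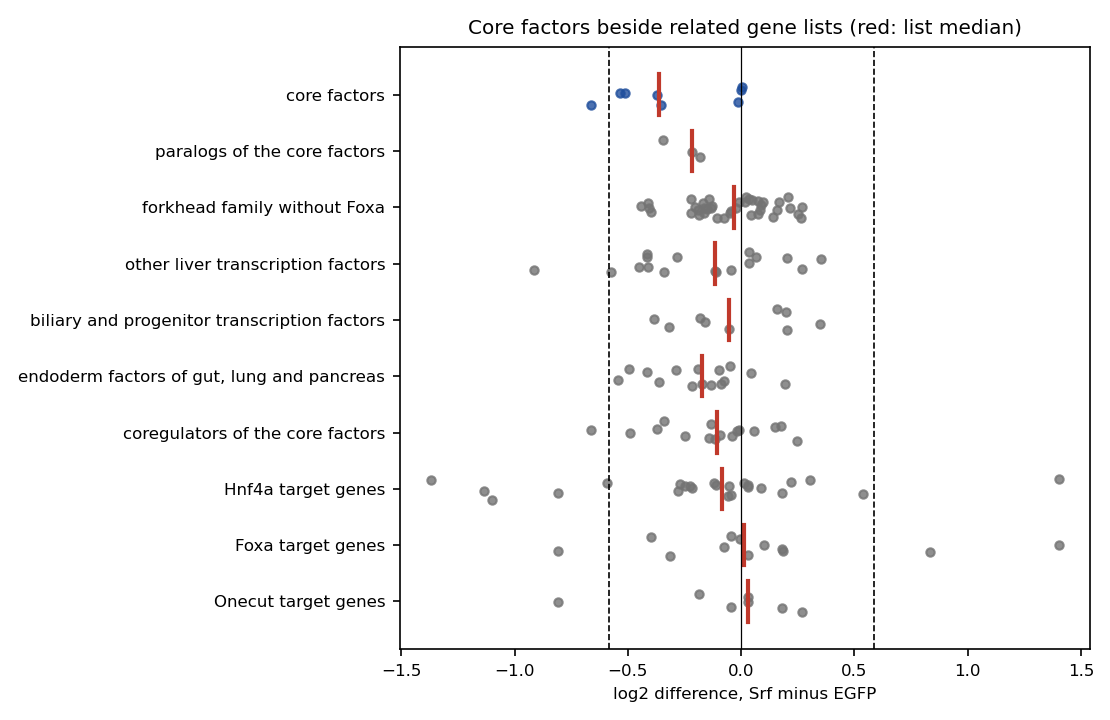
Log2 difference between the Srf and EGFP arrays of each gene compared (points, spread vertically for view), by gene list, with the median of each list as a red line, a solid line at 0 and dashed lines at 1.5-fold in each direction. The 8 core factors (blue) had a median of -0.36, and the lists of target genes spread from -1.37 for Ambp to 1.40 for Apob, with medians near 0.

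Known target genes of the core factors went both ways. The lists do not separate targets that a factor raises from those it lowers. The direction of a target is thus not set against that of its factor. The counts here stand beside 1.27% lower and 1.55% higher by 1.5-fold among all genes compared. Of 24 Hnf4a targets compared, 5 were lower by 1.5-fold or more and 1 was higher, with a median of -0.09. The 5 were Ambp, which encodes a plasma glycoprotein precursor (7.99 and 6.63), Ocln, which encodes a tight junction protein (7.97 and 6.83), Apoa1 (9.57 and 8.47), the carrier protein gene Ttr (10.35 and 9.55) and Apoc2 (9.11 and 8.52). Apoc2 passed only narrowly, at 1.51-fold. The count of lower Hnf4a targets was 4 with median centring and also with probe sets of several symbols kept. The higher gene was Apob (10.31 and 11.71). Of 12 Foxa targets, Ttr was lower while Apob and Afp (6.76 and 7.60) were higher, with a median of 0.01. Of 7 Onecut targets compared, only Ttr passed, Tgfbr2, a TGF-beta receptor gene, had the highest difference (8.89 and 9.16), and the median was 0.03. Ttr is in all of these lists and Apob in 2, so the counts are not independent. Of the 24 Hnf4a targets, 15 reached the median of either array.

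Among 16 coregulators with which these factors work, 1 was 1.5-fold lower, 0 were higher, and the median was -0.10. This count and those below stand beside 1.27% lower and 1.55% higher among all genes compared. Ppargc1a, a coactivator that works with Hnf4a on gluconeogenic genes, was at 6.57 and 5.91, a difference of -0.66, and Crebbp, a histone acetyltransferase, had the highest difference (0.25). Factors of the bile duct and progenitor side had a median of -0.05, and 0 of 9 passed 1.5-fold, with Hey1, a Notch target, lowest at -0.38 and Klf6 highest at 0.35. The defining genes of hepatoblasts gave a mixed check of the label. Krt8 (12.29 and 12.42), Krt19 (11.65 and 11.47), Ttr and Alb (9.48 and 9.17) were bright on both arrays. Dlk1 (6.18 and 6.04) and Igf2 (6.18 and 6.15) lay near the array medians. Gpc3 (5.39 and 5.44) lay below them, above only 34.9% and 37.7% of the probe sets, and Epcam was lower with Srf (8.47 and 7.33). Of the 11 hepatoblast markers, 2 were 1.5-fold lower, Epcam and Ttr, and 1 was higher, Afp (6.76 and 7.60). Of 10 mesenchymal markers, Pdgfrb (7.86 and 6.78) and Col1a2 (6.52 and 5.45) were lower by 1.5-fold and 0 were higher. Ngfr had the highest difference among those at or above the array median (6.23 and 6.39). Signals over the list ran from 5.47 to 12.30 (EGFP) and from 5.45 to 12.46 (Srf). Both upper ends were those of Vim, above 99.5% and 99.6% of the probe sets, and no other marker exceeded 7.86. Whether the makeup of the cultures had a part in the differences of the core factors was not tested.

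The genes most like Foxa3 were those whose pair of values lay nearest to it over the 2 arrays. They were Rcor2 (7.46 and 6.75), at a distance of 0.09, Pcdh18 (7.47 and 6.77), at 0.10, and the olfactory receptor pseudogene Olfr1077-ps1 (7.29 and 6.66), at 0.11. Rcor2 encodes a corepressor that works with a histone demethylase, and Pcdh18 a protocadherin. With 2 arrays such a likeness says only that the levels on each array were close.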

How the data were processed

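Log2 signals per probe set were taken as the authors deposited them. The labels and methods describe whole-transcript amplification of total RNA, an Affymetrix mouse gene array, and GeneSpring with percentile shifts after low signals were excluded. How probes were summarised and the base of the logarithm are not given in the sources used here. This base was read from the values (4.28 to 13.63), and every fold rests on it.

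The EGFP and Srf arrays formed 1 group each by their labels, and the Srf array minus the EGFP array was the only comparison, without a test. Probe sets with 1 symbol in the platform's annotation were used and averaged by gene on the log2 scale. All 8 core factors had the same symbol under their Entrez identifier in RefSeq. Genes were compared if either value was at or above its array's 20th percentile, which all 8 passed, and counted at 1.5-fold. Each core factor was set beside the 1000 genes nearest in mean level. Some listed genes had no probe set with 1 symbol and are not analysed here.

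The members and lists were chosen with earlier results of these data known. Named were all core factors, Srf, all paralogs, every list gene past 1.5-fold, the highest and lowest list members at or above the array median, and the 3 genes nearest to each core factor past 1.5-fold; other marker genes were named to show levels and were chosen after their values were seen. The forkhead rule was written with a capital after Fox, which fits no mouse symbol, and lower case was used. Alternatives were 4 scalings (median, 75th percentile, quantile, lowess with a span of 0.3 in statsmodels 0.14.6), the brightest probe set, probe sets with several symbols, 2 other filters and a 2-fold threshold. The counting code was run on the real differences, shuffled among genes of like level, with known folds added to some genes. Each added fold took its gene past 1.5-fold by construction, so this run checks the code and nothing about the data.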

Additional observations from a re-analysis of the deposited data

How the results depend on the processing

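With 1 array per group no array could be left out. No paired analysis was possible because each group had 1 array. The difference of each core factor moved by less than 0.20, the SD between probe sets of a gene, under the 4 scalings and both probe set rules, and the median of the 8 ranged from -0.39 to -0.33. The count of core factors 1.5-fold lower stayed at 1, and that of higher ones at 0, under every alternative except the 2-fold threshold, under which 0 were lower. Each core factor had 1 probe set and no probe set with several symbols named one, so the choice of the brightest probe set and the probe sets with several symbols gave the same differences, and all 8 passed both filters. At 2-fold, 61 of all genes compared were lower and 66 higher. Among the other lists, a second liver factor, Nr1i2, passed 1.5-fold with the shift to a common 75th percentile, and the median of the other liver factors was -0.28 with the filter at the array median, beside -0.11. No measure of signal over background was used, so the lowest level at which a difference could be measured is not given.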

Other observations

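Factors that specify gut, lung and pancreas act in the same endoderm as the liver factors. Of 15 such genes, 9 reached the median of either array and 0 passed 1.5-fold. Below 0 lay 13 of the 15, beside 52.8% of all genes compared. That share covers genes of all levels, while the median signal of the 15 was 5.95 on the EGFP array. Of the 1000 genes nearest in mean level to Onecut1 (5.91 on both arrays), 63.9% had a difference below its 0.00. Their median difference was -0.05. The median of the 15 was -0.17, beside -0.01 over all genes compared. How far the values of this list go with level was not tested. Cdx2, a homeobox factor of the intestine, had the lowest difference, with 8.83 in EGFP cells and 8.28 in Srf cells, a difference of -0.54. Neurog3, a factor of endocrine progenitors, had the highest difference (6.002 and 6.194). Pdx1, which is needed for the pancreas to form, was at 6.79 and 6.57. The median of this list ranged from -0.29 with the filter at the array median to -0.13 with lowess centring.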
